A study of Oryza sativa with 4 samples.

Results

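The rice genes gid1 and SLR1 encode the gibberellin receptor and the DELLA repressor that it binds, and they are described here with 3 cytochrome P450 genes of growth hormone metabolism. CYP701A6 serves gibberellin synthesis, CYP85A1 serves brassinosteroid synthesis, and CYP734A6 serves brassinosteroid inactivation. The 5 genes were found by symbol or synonym in the RefSeq gene table and stand among 17905 genes that had a probe set of their own on the array. They were chosen by the difference between the groups that earlier results of these same arrays had shown, so their values are a description and carry no test. They were read by 7 probe sets in all, of which 6 had a mean level above the minimum of 4 used for testing.

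The material was the coleoptile, the sheath around the shoot of a germinating grass, of rice (Oryza sativa cv Nipponbare). Seeds germinated for 4 days at 28 °C in darkness, either without oxygen in an anaerobic chamber filled with nitrogen and hydrogen (anoxic, 2 arrays) or in air (aerobic, 2 arrays). The primary leaf was cut out of aerobic coleoptiles only, because anoxic ones hold none, so effects of oxygen and of this dissection cannot be told apart. All 4 arrays were Affymetrix Rice Genome GeneChips, with total RNA as the starting material. No label tells whether replicates came from separate cultures, so p-values cover only the spread of these arrays, which may be technical.

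Gibberellin binds the soluble receptor encoded by gid1, and the bound receptor then takes hold of the DELLA protein encoded by SLR1, which restrains growth until it is marked for degradation. Gibberellin is built from a plastid diterpene that CYP701A6, an ent-kaurene oxidase, oxidises early in the pathway. Brassinosteroids are perceived at the cell surface. CYP85A1 catalyses late steps of their synthesis, and P450s of the CYP734A group hydroxylate them into inactive forms. Both hormones promote cell elongation in grass seedlings.

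The deposited intensities are given as log2(intensity + 1) levels, 1 value per probe set and array. A difference is the anoxic mean minus the aerobic mean on this scale, and it understates the change of dim probe sets. Reporter probe sets, which read sequences foreign to untransformed rice, reached a group mean of at most 4.05, and this level is used as background. In these bulk samples, fewer cells of a type and less RNA per cell cannot be told apart. A level belongs to its probe set and is not compared between genes.

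The receptor gene gid1 (LOC4338764) was higher in anoxic coleoptiles. Its bright probe set had deposited intensities of 1032 and 909 on the anoxic arrays, against 296 and 434 on the aerobic arrays. As log2 levels these were 10.01 and 9.83 in anoxic coleoptiles and 8.22 and 8.77 in aerobic coleoptiles. Both anoxic arrays lay above both aerobic arrays. The group means were 9.92 ± 0.13 in anoxic and 8.49 ± 0.39 in aerobic coleoptiles (SD, n = 2 each). The difference was 1.43, or 2.70-fold, and single pairs of arrays differed by 1.06 to 1.80. The aerobic arrays were 0.55 apart, against a median gap of 0.23 between the aerobic arrays over all tested probe sets. The other probe set of gid1 lay at background on all 4 arrays (2.90 and 2.92 in anoxic, 2.90 and 2.89 in aerobic coleoptiles) and was not tested. The values of gid1 therefore rest on 1 probe set.

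SLR1 (LOC4333860), the DELLA gene, ran the other way. Its single probe set read 130 and 102 on the anoxic arrays, against 477 and 390 on the aerobic arrays. The log2 levels were 7.03 and 6.68 in anoxic and 8.90 and 8.61 in aerobic coleoptiles. The groups did not overlap, and all 4 levels were well above background. The means were 6.86 ± 0.25 in anoxic and 8.76 ± 0.20 in aerobic coleoptiles (SD, n = 2 each), a difference of -1.90 or 3.73-fold. Between single pairs of arrays it ranged from -2.22 to -1.58. The receptor transcript was thus more abundant, and that of the repressor it binds less abundant, on both anoxic arrays.

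CYP701A6 (LOC4341347), the gene of gibberellin synthesis, was also lower in anoxia. Its brighter probe set read 34.3 and 35.2 on the anoxic arrays, against 101 and 95.1 on the aerobic arrays. The log2 levels were 5.14 and 5.18 in anoxic and 6.68 and 6.59 in aerobic coleoptiles, with no overlap. Replicates were close, 0.04 apart in anoxic and 0.09 in aerobic coleoptiles. The difference was -1.47, or 2.77-fold. The dimmer probe set read 3.98 and 3.99 in anoxic coleoptiles, just under background, and 4.61 and 4.72 in aerobic coleoptiles. It was therefore at least 1.53-fold lower in anoxia by the distance of the aerobic mean from background, with a measured difference of -0.68.

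Both CYP701A6 probe sets carry the suffix that Affymetrix gives to sets whose probes also match other sequences. In the RefSeq table the gene lies in a run of CYP701A genes, so signal from similar neighbours cannot be set apart with certainty. The neighbour CYP701A8 (LOC4341343) had its own probe set, which read 3.23 and 3.31 in anoxic and 5.50 and 5.86 in aerobic coleoptiles. CYP701A9 (LOC4341340), further along, lay at background on all arrays, and the entry LOC112936021, which shares names with CYP701A6, had no probe set of its own. Cross-hybridisation between these copies was not tested.

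**Figure D1:**
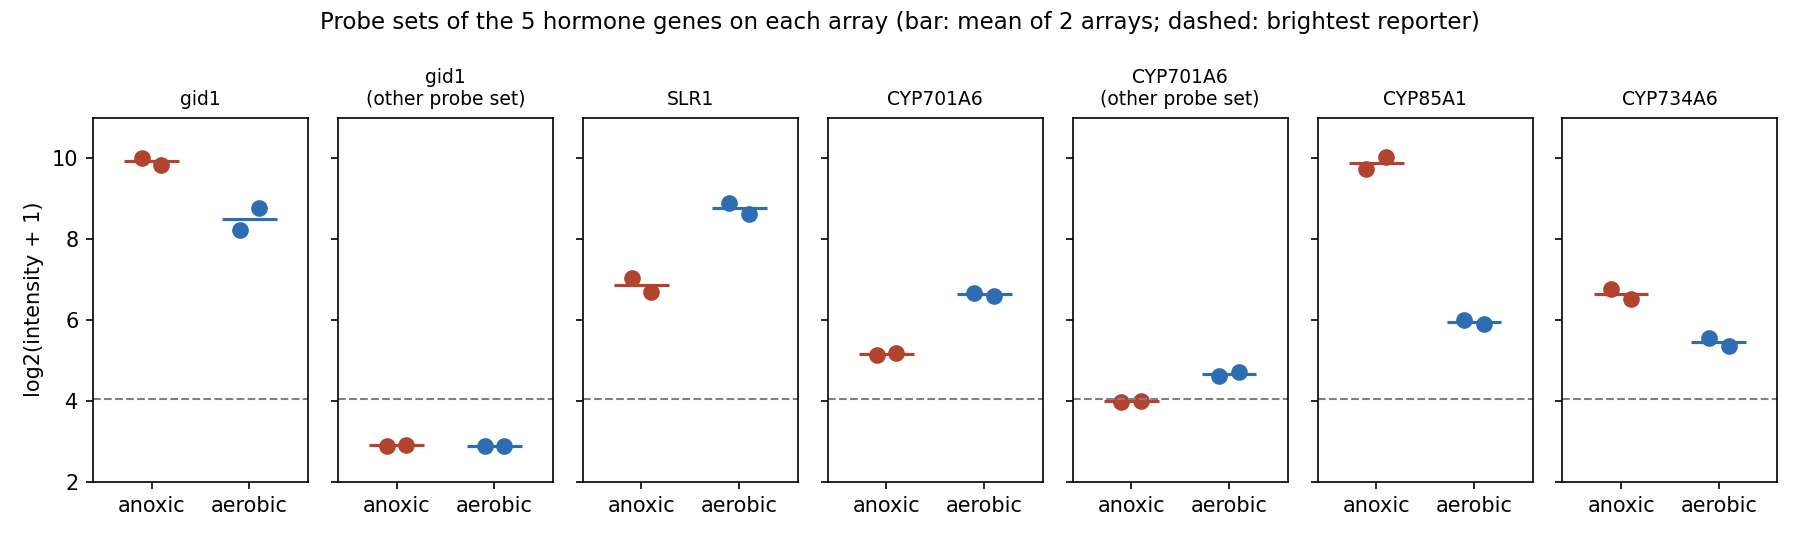
Log2(intensity + 1) level of each of the 7 probe sets on the 2 anoxic arrays (red, left) and the 2 aerobic arrays (blue, right); short bars are group means and the dashed line is the brightest reporter mean, 4.05. gid1, CYP85A1 and CYP734A6 lie higher on both anoxic arrays, SLR1 and CYP701A6 lie lower, and the other gid1 probe set stays below the dashed line.

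CYP85A1 (LOC4333399), the gene of brassinosteroid synthesis, had the widest difference of the 5 genes. Its probe set read 843 and 1032 on the anoxic arrays, against 63.1 and 58.9 on the aerobic arrays. The log2 levels were 9.72 and 10.01 in anoxic and 6.002 and 5.90 in aerobic coleoptiles. The gap between groups was many times the gap between replicates, which was 0.29 in anoxic and 0.10 in aerobic coleoptiles. The difference was 3.91, or 15.1-fold, and ranged from 3.72 to 4.11 between single pairs. Of all 12291 genes tested, 98.8% had a smaller or more negative difference.

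CYP734A6 (LOC4325222), which encodes an enzyme of brassinosteroid inactivation, was higher as well. It read 109 and 91.2 on the anoxic arrays, against 46.2 and 40.2 on the aerobic arrays. The log2 levels were 6.78 and 6.53 in anoxic and 5.56 and 5.36 in aerobic coleoptiles, again without overlap. The difference was 1.19, or 2.28-fold, with single pairs between 0.97 and 1.41. Transcripts of 1 gene of synthesis and 1 gene of inactivation of the same hormone were thus both more abundant in anoxic coleoptiles, by unequal amounts.

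The size of these differences can be read against the whole array. By limma, 32.1% of probe sets and 33.9% of 12291 genes differed between anoxic and aerobic coleoptiles (adjusted p under 0.05 and an absolute difference of at least 1), 15.9% higher and 18.0% lower in anoxia. For 77.9% of genes the anoxic and aerobic arrays did not overlap. All 5 hormone genes were of this kind, as their choice made likely. The differences of gid1 and CYP734A6 exceeded those of 89.5% and 85.8% of genes, whereas 9.99% of genes had a lower value than SLR1 and 13.7% a lower value than CYP701A6. All 5 genes thus lay within the range of other genes, with CYP85A1 the furthest out. The bin of differences from 3.75 to 4, which holds CYP85A1, counted 33 genes, and the bin from -4 to -3.75 counted 60.

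**Figure D2:**
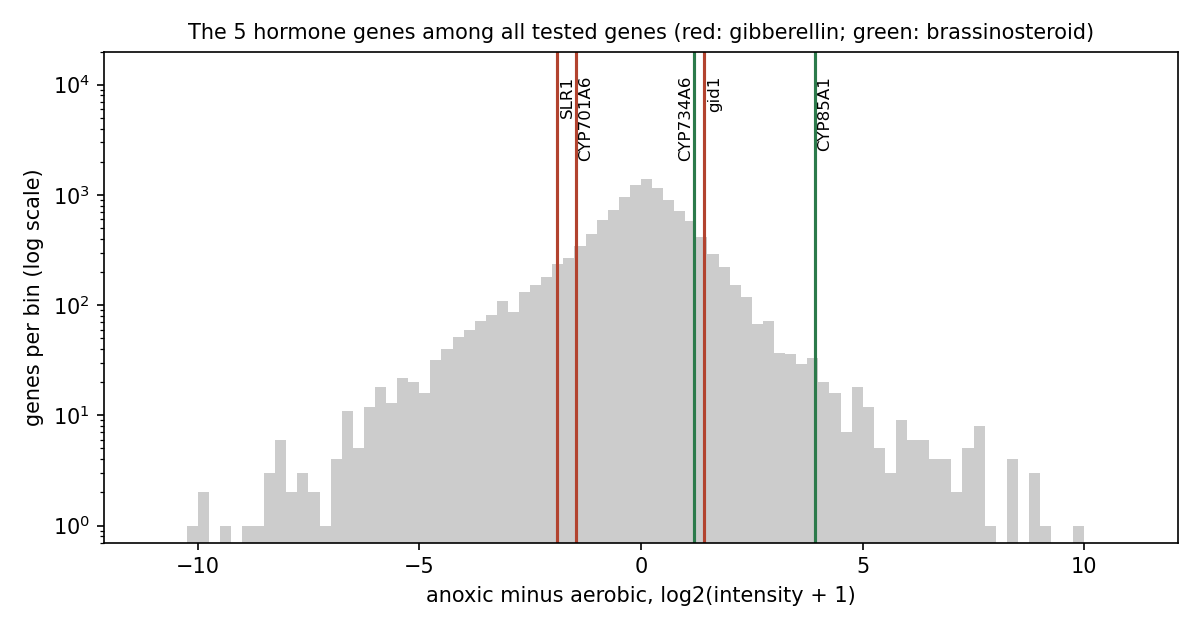
Number of tested genes (log axis) by difference, anoxic minus aerobic, on the log2(intensity + 1) scale in bins of 0.25, with vertical lines at the 3 gibberellin genes (red) and 2 brassinosteroid genes (green). CYP85A1 at 3.91 lies far in the upper tail, while the other 4 lie between -1.90 and 1.43.

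Other genes of gibberellin synthesis and signalling mostly did not pass the test, and no gene of gibberellin inactivation could be tested. Of 34 listed symbols, 15 matched a gene, 12 of these had a probe set of their own, and 9 reached the minimum level. The symbols of the GA 2-oxidases, which inactivate gibberellin, and the GA 3-oxidases, which complete its synthesis, matched no gene and are not analysed here. By limma, 0 of 9 rose and 1 fell, or 11.1%, against 33.9% of all genes; at an unadjusted p under 0.05 there were 1 higher and 1 lower. The median difference over the 9 genes was 0.16, and 0.03 over all genes. The arrays of the groups did not overlap for 6 of the 9, against 77.9% of all genes.

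The gene that fell was GAMYB (LOC4327362), a MYB factor that activates alpha-amylase genes in the cereal aleurone. It read 5.31 and 5.93 in anoxic and 6.82 and 6.78 in aerobic coleoptiles, a difference of -1.18 ± 0.27 (SE; limma, adjusted p = 0.0291). Its call was lost without anoxic replicate 1 (difference -0.87, adjusted p = 0.0625), aerobic replicate 1 (0.159) or aerobic replicate 2 (0.153), with no filter on the mean level (0.215) and with the replicate number as a block (0.0506). A pseudocount of 16 brought its difference to -0.97, and its probe set too carries the suffix for shared probes. YAB1 (LOC4342449), a YABBY transcription factor, stood 0.89 ± 0.19 higher in anoxia (limma, adjusted p = 0.0242), short of the required difference of 1. The name of its probe set also marks shared probes.

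Genes before and after CYP701A6 in the synthesis pathway did not pass the test. KS1, the ent-kaurene synthase that makes its substrate, differed by 0.03 ± 0.16. The name of the KS1 probe set marks shared probes, and its group means of 4.64 in anoxic and 4.61 in aerobic coleoptiles were not far above background. KAO, the kaurenoic acid oxidase that acts on the product of CYP701A6, differed by 0.58 ± 0.31. Of the gibberellin oxidases that form the later precursors, GA20ox2 differed by -0.56 ± 0.30 and GA20ox3 by 0.16 ± 0.42 (SE; limma, adjusted p from 0.21 to 0.894 over these 4 genes). GA20ox3 read 8.90 and 7.75 on the anoxic arrays, on either side of the aerobic levels of 8.12 and 8.21. CPS1, which encodes the first cyclase, EUI1, a P450 that inactivates gibberellin, and SLRL1, a relative of SLR1, were at background in both groups.

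On the response side, SPY, an O-linked sugar transferase that dampens gibberellin signalling, differed by 0.20 ± 0.17. The GRAS genes CIGR1 and CIGR2, named for their induction by chitin and gibberellin, differed by -0.01 ± 0.29 and 0.50 ± 0.36. None of these 3 passed (SE; limma, adjusted p from 0.328 to 0.975). CIGR2 read 8.15 on anoxic replicate 1 and 7.20 on anoxic replicate 2, against 7.20 and 7.16 in aerobic coleoptiles, so its mean difference came from 1 array.

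**Figure D3:**
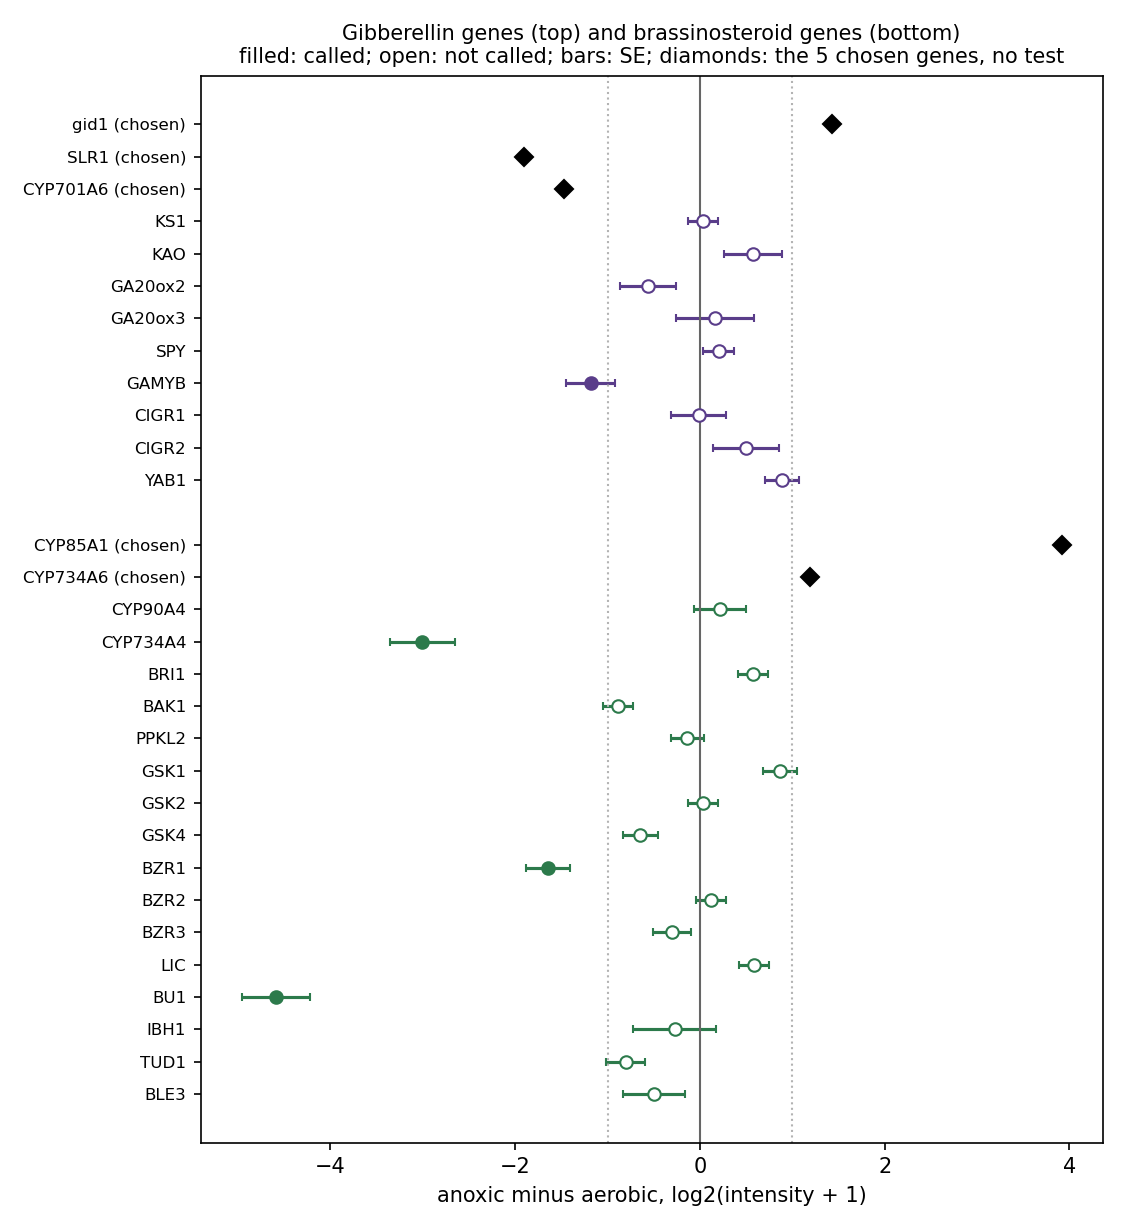
Difference, anoxic minus aerobic, on the log2(intensity + 1) scale for the tested gibberellin genes (top block) and brassinosteroid genes (bottom block); circles are listed genes with limma's SE, filled where called, diamonds are the 5 chosen genes, and dotted lines mark -1 and 1. Filled circles occur only on the lower side, at GAMYB, CYP734A4, BZR1 and BU1.

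Among the other brassinosteroid genes, those called were lower in anoxia. Of 43 listed symbols, 25 matched a gene, 19 had a probe set of their own and 16 were tested. By limma, 0 of 16 rose, against 15.9% of all genes, and 3 fell, or 18.8%, against 18.0% of all genes. At an unadjusted p under 0.05 there were 3 higher and 6 lower. The share that fell was thus close to that of the whole array. The share called in either direction, 18.8%, was below the 33.9% of all genes. The median difference was -0.29, against 0.03 over all genes. The groups did not overlap for 12 of the 16, against 77.9% of all genes.

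BU1 (LOC4340551), a helix-loop-helix protein that promotes the brassinosteroid response and whose gene is induced by the hormone, had the widest fall of the 16. Its intensities were 17.9 and 28.2 on the anoxic arrays, against 733 and 437 on the aerobic arrays. The log2 levels were 4.24 and 4.87 in anoxic coleoptiles, just above background, and 9.52 and 8.77 in aerobic coleoptiles. The difference was -4.59 ± 0.37 (SE; limma, adjusted p = 0.00279), and the call held without any 1 of the 4 arrays (adjusted p up to 0.0428), though not with no filter on the mean level (0.0652). BU1 thus lay lower in the same anoxic coleoptiles in which CYP85A1 lay higher, and a link between these values was not tested. BLE3, another gene induced by the hormone, was not called (-0.49 ± 0.33, SE).

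BZR1 (LOC4343719), a transcription factor of the brassinosteroid pathway that represses genes of hormone synthesis, read 4.61 and 5.07 in anoxic and 6.38 and 6.61 in aerobic coleoptiles. It fell by 1.65 on the log2 scale (SE 0.24; limma, adjusted p = 0.00977). The related BZR2 and BZR3 differed by 0.12 ± 0.16 and -0.30 ± 0.20 and did not pass. CYP734A4 (LOC4341450), of the same P450 group as CYP734A6, read 4.29 and 3.51 in anoxic and 6.65 and 7.15 in aerobic coleoptiles. The anoxic mean lay under background, and the gene was at least 7.20-fold lower in anoxia (measured difference -3.01; limma, adjusted p = 0.00618). The 2 CYP734A genes with a probe set therefore had differences of opposite sign; the contrast between them was not tested. BZR1 was no longer called when aerobic replicate 1, aerobic replicate 2 or the filter on the mean level was left out (adjusted p = 0.0756, 0.0858 and 0.105). For CYP734A4 the same omissions gave 0.0618, 0.0707 and 0.103.

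**Figure D4:**
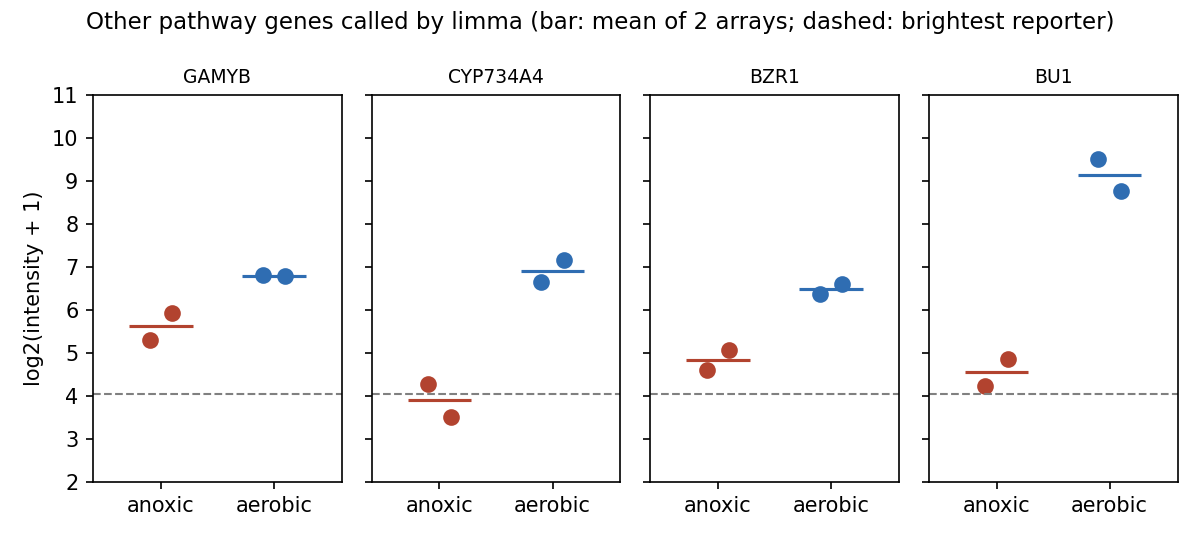
Log2(intensity + 1) level on the 2 anoxic arrays (red, left) and the 2 aerobic arrays (blue, right) of the 4 listed genes that limma called; short bars are group means and the dashed line is the brightest reporter mean. All 4 lie lower on both anoxic arrays, and CYP734A4 and BU1 come close to the dashed line there.

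No receptor or kinase gene was called. The receptor gene BRI1 read 9.51 and 9.50 in anoxic and 8.97 and 8.90 in aerobic coleoptiles, a difference of 0.57 ± 0.16 that missed both thresholds (SE; limma, adjusted p = 0.0525). BAK1, which encodes its co-receptor, differed by -0.89 ± 0.16. Of the GSK3-like kinases, a family whose members restrain the pathway, GSK2 differed by 0.03 ± 0.16 and GSK4 by -0.64 ± 0.19. The gene that the RefSeq table names GSK1 (LOC4337722) differed by 0.87 ± 0.18. Its probes also match other sequences, and whether it is the rice brassinosteroid kinase of that name is uncertain. TUD1, a U-box ubiquitin ligase, differed by -0.80 ± 0.21. BAK1, GSK1 and TUD1 had an adjusted p under 0.05 (0.0177, 0.0249 and 0.0433 by limma) but a difference short of 1. Their groups did not overlap, as was so for 77.9% of all genes.

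The remaining tested genes were CYP90A4, a P450 of brassinosteroid synthesis (0.22 ± 0.28), PPKL2, matched through its synonym BSL1 (-0.14 ± 0.18), LIC, a zinc-finger protein that opposes the response (measured difference 0.59 ± 0.17, with its aerobic mean under background), IBH1, an inhibitory helix-loop-helix protein (-0.27 ± 0.45), and BLE3, a gene induced by the hormone (-0.49 ± 0.33). None passed (SE; limma, adjusted p from 0.0513 to 0.661). CYP724B1, a second P450 of synthesis, the receptor-like BRL1 and the receptor inhibitor BKI1 were at background in both groups. Of the 3 genes of brassinosteroid synthesis with a probe set, CYP85A1 and CYP90A4 thus lay above background.

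The genes whose profiles were most like each hormone gene were sought among 1827 other tested genes with a symbol, by the root mean square difference between log2 levels over the 4 arrays after centring each gene on its mean. For gid1 these were OsZHD10, HAZ1 and COPT5.1 (0.06, 0.06 and 0.07). For SLR1 they were GL2-6, KRP1 and BADH2 (0.07 for each). For CYP701A6 they were CPK1, OsXylT and CESA7 (0.05, 0.06 and 0.07). For CYP734A6 they were OsPK2, LOL2 and IRL3 (0.03, 0.04 and 0.05). For CYP85A1 the nearest were wsl8, RASI and COPT2 (0.21, 0.27 and 0.27). The aerobic means of these 3 genes, and the anoxic mean of CESA7, lay at or under background, so their differences are limited by it and these distances are not exact. With 4 arrays in 2 groups, this likeness holds little beyond the difference between groups and the gap within each.

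**Figure D5:**
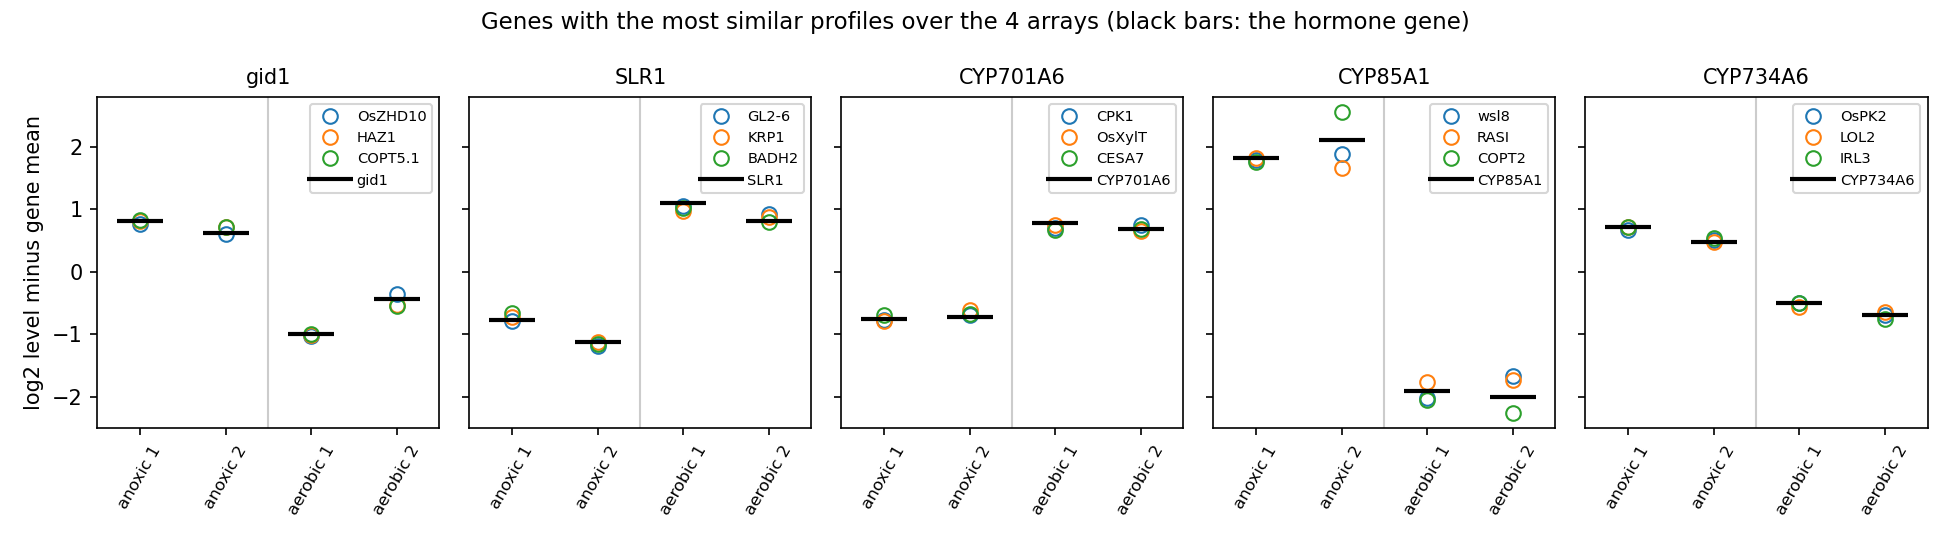
Log2 level minus the gene's own mean on the 4 arrays for each hormone gene (black bars) and its 3 nearest genes (open circles). The circles lie on the bars for gid1, SLR1, CYP701A6 and CYP734A6 and spread around them for CYP85A1, whose 3 nearest genes are at background in aerobic coleoptiles.

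Markers of other tissue were read on the same arrays; no list of markers defining the coleoptile itself was used. Of the 6 leaf and photosynthesis genes with a probe set, 3, including CAB2R and RCA, were at background in both groups. By limma 0 of the 2 tested were called, against 33.9% of all genes, and neither had an unadjusted p under 0.05. Whether these genes mark leaf tissue in seedlings grown in darkness, as here, was not tested. The summed intensity of the 6 was 240 and 198 in anoxic and 246 and 210 in aerobic coleoptiles, most of it from 1 probe set of RBCS, the Rubisco small subunit (176 and 153 in anoxic, 171 and 147 in aerobic coleoptiles). PORA, an enzyme of chlorophyll synthesis in etiolated tissue, read 20.4 and 4.82 in anoxic and 41.4 and 27.3 in aerobic coleoptiles, with no overlap and an anoxic mean under background, and was not called (measured log2 difference -1.63 ± 0.69; SE; limma, adjusted p = 0.131). PORB, of the same enzyme family, was below the minimum for testing and had a measured log2 difference of 1.01, with its aerobic mean under background.

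The 6 seed storage genes summed to 192 and 185 in anoxic and 449 and 416 in aerobic coleoptiles, and 4 of them were at background in both groups. The gap between the sums came from the globulin gene GLB, which read 110 and 108 in anoxic and 372 and 331 in aerobic coleoptiles (log2 difference -1.68 ± 0.17; limma, adjusted p = 0.00457). The other gene tested, the glutelin gene LOC4348563, differed by -0.06 ± 0.20 and was not called. The 6 cell division genes summed to 220 and 333 in anoxic and 103 and 164 in aerobic coleoptiles, and 4 of them were below the minimum for testing. Of these, the cyclin genes LOC4327547, CYCB2-1 and CYCB2-2 were higher in anoxia without overlap (measured log2 differences 1.52, 1.105 and 1.199). Their aerobic means lay under background, and the cyclin gene LOC4326914 was at background in both groups. Of the 2 tested, the kinase gene CDKB2-1 rose (1.14 ± 0.26; limma, adjusted p = 0.0292) and PCNA, the replication clamp, was not called (0.99 ± 0.40; adjusted p = 0.121). The groups did not overlap for either. In each of these 2 lists 1 of 2 tested genes was thus called, against 33.9% of all genes. The part of GLB, PORA and the cell division genes in the hormone gene results was not tested.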

How the data were processed

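Per the labels' list of tools, the authors used GCRMA, which corrects background by probe base composition and normalizes arrays, but its version is not given in the sources used here. Each deposited intensity was linear, with array medians from 7.36 to 7.55, so no scaling was added. Gene names came from the platform annotation: 22436 probe sets had 1 gene, 95 several and 34663 none. All 17905 genes were in the RefSeq table of assembly ASM3414082v1, used for names and neighbours only.

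The log2 of each intensity plus 1 was taken. Without 187 control probe sets, 18826 reached a mean of 4 and entered a 2-sided fit by limma 3.58.1 (R 4.3.3), Benjamini-Hochberg adjusted over them, of which 32.1% were called. A gene was read by its brightest probe set. With 2 arrays against 2, an exact permutation test cannot go below p = 0.333. The steps were tested on simulated data. The hormone genes and lists were chosen with earlier results of these data known; every matched list gene could be named. GID2 matched ambiguously. The match that was kept (LOC112937812) counts among the matched genes but had no probe set of its own, so GID2 is not analysed here. Alternatives varied filter, pseudocount, floor, normalization, probe set rule, arrays and replicate block.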

Additional observations from a re-analysis of the deposited data

How the results depend on the processing

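The 5 hormone genes kept their direction under every alternative run. Their groups did not overlap, so leaving out 1 array, changing the pseudocount or floor, or adding a block could not have reversed it. CYP701A6 did not reach the mean of at least 6. Without any 1 array the difference ranged from 1.16 to 1.71 for gid1, -2.07 to -1.73 for SLR1, -1.51 to -1.43 for CYP701A6, 3.77 to 4.06 for CYP85A1 and 1.06 to 1.31 for CYP734A6. A pseudocount of 16 gave -1.17 for CYP701A6, 3.62 for CYP85A1 and 0.97 for CYP734A6, and the mean of both probe sets gave -1.07 for CYP701A6. The number of called probe sets, 6036, was 1709 with no filter on the mean level, 3829 with a mean of at least 6, and 2083 to 4253 without 1 array, lowest without either aerobic array. By limma the other gibberellin genes called, 1, became 0 with no filter, with a pseudocount of 16 and with the replicate block, with 2 at an unadjusted p under 0.05 in each, and lay between 0 and 1 without 1 array. The other brassinosteroid genes called, 3, became 0 with no filter (9 at an unadjusted p under 0.05), 1 with a mean of at least 6, which BZR1 and CYP734A4 did not reach, and 1 to 3 without 1 array. The replicate number as a block left 3 of them called, and same-numbered arrays deviated against each other (r = -0.14 over 18826 probe sets), so the numbers are not taken as pairs. A crossed pairing, added after seeing the data, called 1 and 3. Quantile normalization and median centring moved the median difference of all tested probe sets by 0.0133 and -0.000758 and changed neither count. With 2 arrays a group, the number of arrays limits the precision.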
